A study of Drosophila melanogaster with 4 samples.

Results

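The homeobox gene hth (homothorax) lies on chromosome arm 3R of Drosophila melanogaster, in a stretch where histone H3 trimethylated at lysine 27 (H3K27me3) was called as a long row of separate regions. All enriched regions that overlap 3R from 6240000 to 6505000, in Release 5 of the fly genome, were taken as members, chosen by their called positions. They numbered 22 of 1486 regions in ChIP replicate 1, 25 of 1459 in ChIP replicate 2 and 14 of 2279 in a list made for the series as a whole, called the series list below. No region crossed an edge of this 265 kb window. The window was picked out because more than 20 regions of each replicate lay in it as a chain of about 256 kb, so the number and placement of its regions are given here as a description, with no test.

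H3K27me3 was profiled by chromatin immunoprecipitation and sequencing (ChIP-seq) in whole embryos of the wild-type strain Oregon-R (Oregon-R-modENCODE), 14 to 16 h old. The series has 4 samples, 2 H3K27me3 ChIP libraries and 2 inputs, and each input is paired by its number with a ChIP library. No genotype, treatment or second stage is compared, and nothing in the labels says whether the replicates came from separate embryo collections. Read counts were not used and the sequencing depth is unknown, so a stretch without a region is below the authors' threshold and is not shown to lack the mark. In whole embryos, fewer cells with the mark and less mark per cell cannot be told apart.

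H3K27me3 is written by the Polycomb complex PRC2, whose catalytic subunit in flies is E(z), and is bound by PRC1 through the chromodomain of Pc. In flies the mark often forms broad domains over developmental regulators in cells that keep them silent, around Polycomb response elements. Homothorax is a TALE-class homeodomain protein of the Meis family. It binds Extradenticle, another TALE homeodomain protein, brings it into the nucleus and acts with it as a cofactor of Hox proteins. In appendages hth marks the proximal part, and it is needed for antennal identity. The files name no genes, and no annotation of Release 5 was used. That the window is the hth locus was therefore taken as given and not checked. The exons, introns and promoters of hth are not placed on the regions, and regions at hth are those of the window. The RefSeq gene table at hand, of Release 6, puts hth on arm 3R between the protein-coding neighbours Cyp12e1 and CG6465, and its coordinates were not used.

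Most of the called sequence at hth lay in a few broad regions at the right end, and most of the regions were short ones to the left of these. The window was called over 82.9% in replicate 1 and 81.3% in replicate 2, or 82.1% ± 1.1 (SD, n = 2), and over 90.2% in the series list. The 2 longest regions held 65.2% of the called bases in replicate 1 and 73.5% in replicate 2. At the other end of the scale, 18 of the 22 regions in replicate 1 and 23 of the 25 in replicate 2 were under 10 kb wide, and these held 21.9% and 26.5% of the called bases.

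**Figure D1:**
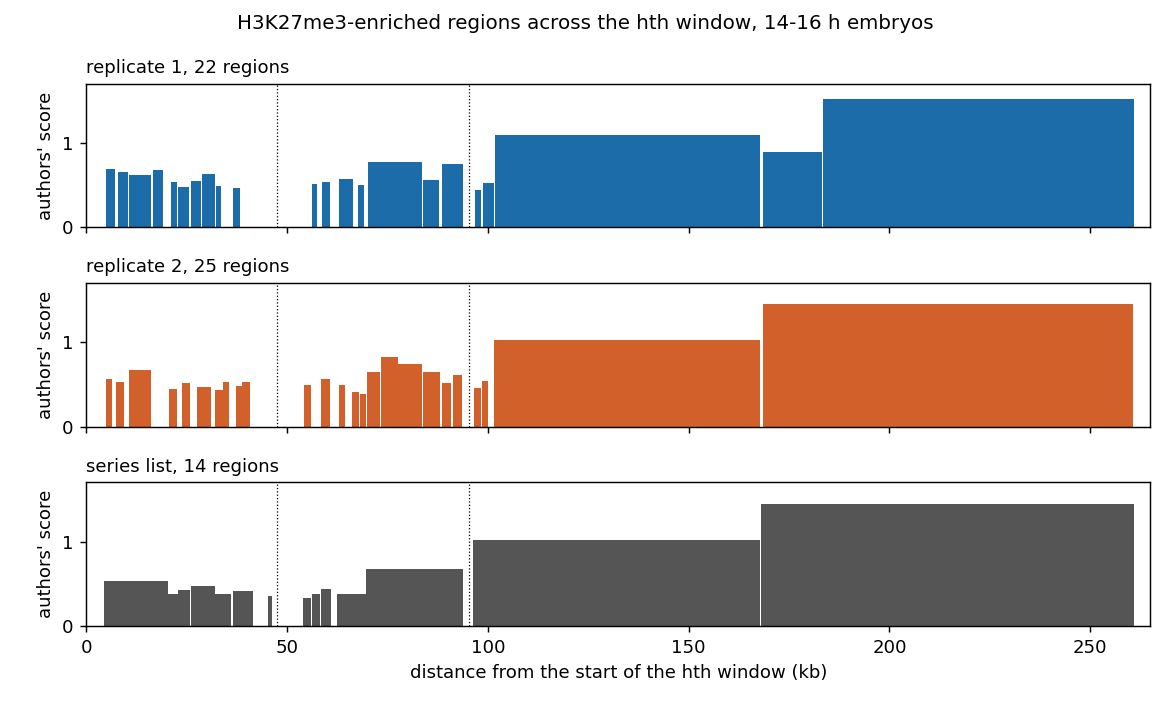
Each bar is a called region of the hth window; its width is drawn to scale in kb from the start of the window, its height is the authors' score, and dotted lines mark the 2 common gaps that separate the zones. Both replicates have short, low bars at the left, and the bars with scores of 1.03 to 1.52 all lie at the right. Replicate 1 has a further bar there of 14.9 kb and score 0.895, set off by a break that replicate 2 lacks.

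The window was divided at the 2 stretches of over 2500 bp that lay between regions in both replicates. This limit was set after the gaps were seen. The left zone ran from 6244898 to 6280868 (36.0 kb), the middle zone from 6294152 to 6333855 (39.7 kb) and the right zone from 6336593 to 6500794 (164 kb).

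In the left zone, each replicate had 10 regions, none wider than 5.60 kb. They covered 72.6% of the zone in replicate 1 and 64.1% in replicate 2. The score, a positive number that the authors give to each region on a scale that the headers and labels do not state, was 0.462 to 0.693 for those of replicate 1 and 0.438 to 0.677 for those of replicate 2. The widest region of the zone was the same in both lists. Replicate 1 placed it at 6250619 to 6256220 and gave it a score of 0.624, and replicate 2 placed it at 6250705 to 6256011 and gave it 0.677. The series list covered 97.1% of the zone, in larger pieces, among them a 15.9 kb region from 6244390 to 6260250 with a score of 0.536 that met 4 regions of replicate 1 and 3 of replicate 2. No region of the left zone scored as high as the broad regions at the right. The first start of the chain was 6245001 in replicate 1, 6244898 in replicate 2 and 6244390 in the series list.

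The middle zone held 7 regions in replicate 1 and 11 in replicate 2, which covered 78.3% and 78.1% of it. Its scores were 0.497 to 0.774 in replicate 1 and 0.384 to 0.827 in replicate 2. The main piece of replicate 1 was 13.5 kb wide, from 6310079 to 6323572, with a score of 0.774. Replicate 2 had 3 regions over the same sequence, 3187 bp, 4179 bp and 5795 bp wide, with scores of 0.646, 0.827 and 0.745. They were separated by 201 bp and 96 bp, stretches that replicate 1 called throughout. The series list ran across this sequence and on to the end of the zone in 1 region of 24.3 kb (6309634 to 6333900, score 0.676), which met 3 regions of replicate 1 and 6 of replicate 2.

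The right zone was almost filled, over 98.95% in replicate 1 and 98.3% in replicate 2. It opened with narrow pieces of 1405 bp and 2901 bp in replicate 1 and of 1586 bp and 1435 bp in replicate 2, with scores from 0.444 to 0.538. The first broad region followed. Replicate 1 called 65.9 kb of it, 6341821 to 6407739, and scored it 1.09, while replicate 2 called 66.2 kb, 6341412 to 6407636, and scored it 1.03. Beyond a short break, replicate 1 had a 14.9 kb region from 6408400 to 6423291 (score 0.895) and then one of 77.4 kb up to 6500794, which began at 6423434 and scored 1.52. Replicate 2 had a single region of 92.2 kb, from 6408552 to 6500765, with a score of 1.46. The break inside replicate 1 was 142 bp long and was called throughout in replicate 2 and the series list. The last end of the chain differed little between the lists, at 6500794, 6500765 and 6500838 in replicate 1, replicate 2 and the series list.

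The width-weighted scores differed between zones by more than they did between replicates within a zone. The mean was 0.593 in the left zone, 0.679 in the middle zone and 1.26 in the right zone of replicate 1. In replicate 2 it was 0.539, 0.628 and 1.26. The order of the zones was the same in the series list, at 0.474, 0.572 and 1.26. For the left and middle zones this order depended on the weighting by width. By median score, the left zone stood above the middle zone in replicate 1 (0.587 and 0.557) and in the series list (0.422 and 0.382). In replicate 2 it stood below (0.521 and 0.560). The right zone had the highest median in each list, at 0.895, 0.783 and 1.23 in replicate 1, replicate 2 and the series list. Within the window, wider regions had the higher scores, with a Spearman coefficient of 0.80 over the 22 regions of replicate 1 and 0.69 over the 25 of replicate 2. The rest of each list went the same way. Outside the window, regions of at least 10 kb had a median score of 1.57 in replicate 1 and 1.54 in replicate 2. Those under 10 kb had 0.573 and 0.556. No p is given because regions of a library share its depth and threshold.

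Beyond the right end, no region was called in either replicate for 573 kb, up to 7074068 in replicate 1 and 7074140 in replicate 2. By length this was number 9 of the 333 stretches between neighbouring regions of 3R in replicate 1, and number 9 of 347 in replicate 2. The series list had a region of its own 17.6 kb beyond the end, from 6518479 to 6519597, with a score of 0.478. To the left, the nearest region outside the window lay 41.5 kb away in replicate 1 and 41.4 kb away in replicate 2. Replicate 1 called it at 6187774 to 6203512 and scored it 1.74, and replicate 2 called it at 6187770 to 6203455 and scored it 1.76. Both scores were higher than any region of the hth window in the same list.

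Most breaks between regions were short beside the regions of the right zone. Replicate 1 had 21 gaps with a median length of 595 bp, of which 13 were under 1 kb, and replicate 2 had 24 with a median of 1021.5 bp, of which 12 were under 1 kb. The gaps summed to 36.1 kb in replicate 1 and 40.4 kb in replicate 2, and to 17.3 kb over 13 gaps in the series list. Merging regions less than 1 kb apart left 9 pieces in replicate 1 and 13 in replicate 2, and merging those less than 2 kb apart left 5 and 6. The widest gap separated the left and middle zones and measured 17.8 kb in replicate 1 (6278380 to 6296155) and 13.3 kb in replicate 2 (6280869 to 6294151). The part common to both replicates was the whole of the replicate 2 gap. The series list had a 1006 bp region in the middle of it, from 6285223 to 6286228 with a score of 0.360, which overlapped neither replicate.

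After the widest gap, those next in length were 2984 bp, 2955 bp, 2291 bp and 1834 bp in replicate 1. In replicate 2 they were 4676 bp, 2986 bp, 2463 bp and 2148 bp. The gap between the middle and right zones differed least in length between the replicates among these. It measured 2955 bp in replicate 1 (6333856 to 6336810), 2986 bp in replicate 2 (6333607 to 6336592) and 2472 bp in the series list (6333901 to 6336372). Another lay further left, inside the middle zone, and measured 2291 bp in replicate 1, where it began at 6300674, 2148 bp in replicate 2, where it began at 6300684, and 1598 bp in the series list. The break between the broad regions of the right zone also recurred, with 660 bp in replicate 1 (6407740 to 6408399), 915 bp in replicate 2 (6407637 to 6408551) and 334 bp in the series list (6407781 to 6408114). It was the only gap in replicate 2 beyond 6341411.

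**Figure D2:**
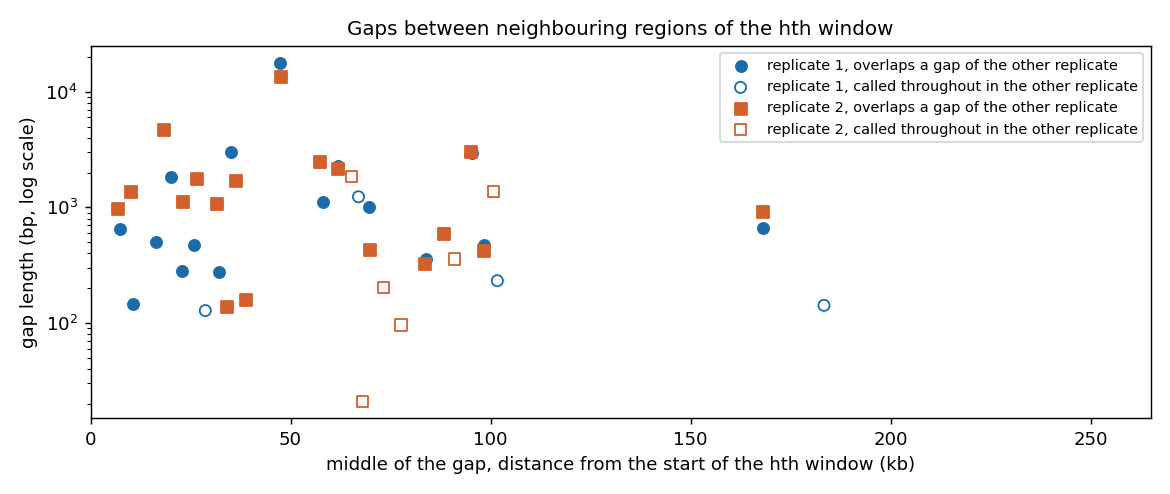
Each point is a gap between neighbouring regions, placed by its middle in kb from the start of the hth window and by its length in bp on a log scale. Filled points overlap a gap of the other replicate, 17 of 21 in replicate 1 and 18 of 24 in replicate 2, and open points are called throughout in the other replicate.

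In all, 17 of the 21 gaps of replicate 1 (81.0%) overlapped a gap of replicate 2 by at least 1 bp, and 18 of the 24 gaps of replicate 2 (75.0%) overlapped one of replicate 1. On the major arms, 76.0% of the gaps under 20 kb in replicate 1 and 86.6% of those in replicate 2 overlapped a gap of the other replicate. The shares at hth were thus near those of the whole lists, above in replicate 1 and below in replicate 2, and show nothing particular to hth. The common parts made 20 stretches, 25.8 kb in all with a median of 392.5 bp, and 12 of these held bases that the series list left uncalled too. The remaining gaps, 4 in replicate 1 and 6 in replicate 2, lay wholly inside a region of the other replicate, and the longest of them measured 1234 bp and 1848 bp.

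Over the window as a whole the replicates called much the same sequence, and they differed most in the left zone as to which bases were called. They also divided the called sequence differently, in the middle and right zones as well as the left. Of the bases called in either replicate, 205 kb of 230 kb, or 89.1%, were called in both, against 86.4% outside the window on the major arms. By zone the shared part was 56.1% at the left, 75.3% in the middle and 98.5% at the right. Replicate 1 alone called 14.6 kb and replicate 2 alone 10.4 kb, of which 8.44 kb and 5.39 kb lay in the left zone.

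Of the replicate 1 regions, 20 of 22 (90.9%) overlapped a replicate 2 region, where the whole list had 81.3%. Of the replicate 2 regions, 22 of 25 (88.0%) overlapped a replicate 1 region, where the whole list had 75.5%. The lists chose the window for its regions in both replicates, so nothing is read from these shares. The regions without a match in replicate 1 lay from 6256720 to 6259161 (score 0.681) and from 6296156 to 6297540 (0.510). Those in replicate 2 lay from 6274088 to 6275571 (0.532), from 6278876 to 6280868 (0.534) and from 6294152 to 6296040 (0.496). All 5 lay in the left zone or at the left edge of the middle zone, and none had the lowest score of its list in the window. The regions that flank the widest gap on its right came close without touching, since the region of replicate 2 ended at 6296040 and that of replicate 1 began at 6296156.

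Regions that met one to one numbered 10 pairs, all under 10 kb wide. Their 20 ends differed by a median of 204 bp and by at most 1139 bp, and 10 of the 20 differed by at most 200 bp. Outside the window, 517 such pairs under 10 kb had a median difference of 246 bp. Scores of the 10 pairs differed by between -0.0923 and 0.133 (replicate 1 minus replicate 2), with replicate 1 higher in 4 of 10. Other regions met more than 1 partner, 5 in replicate 1 and 4 in replicate 2, as where the 65.9 kb and 66.2 kb regions overlapped and the 66.2 kb one of replicate 2 also reached a 2901 bp region of replicate 1.

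The regions above 50 kb at hth had low scores for their width. Among 44 regions elsewhere in replicate 1 with a width of 0.7 to 1.4 times that of the 65.9 kb region, whose score was 1.09, the median score was 2.20 and only 1 was lower. The 66.2 kb region of replicate 2, with a score of 1.03, lay under all 45 of its like, whose median was 2.24. The last region of the chain, scored 1.52 and 1.46 by replicates 1 and 2, had 4 of 37 and 3 of 36 regions of like width below it. Set beside all other regions of at least 50 kb, which numbered 59 in replicate 1 and 61 in replicate 2 and had lowest scores of 1.05 and 1.08, the order was the same. The 65.9 kb and 66.2 kb regions had 1 and 0 of them below, and the last region of the chain had 6 and 6. In the series list, the 71.4 kb and 92.7 kb regions of hth (scores 1.02 and 1.45) stood above 7 and 15 of 72 such regions, so they were less far down the order there. The replicates are separate libraries of the same design, and no test was made, since regions of a list are not replicates.

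The narrower regions did not stand as low. The 18 hth regions under 10 kb in replicate 1 had a median score of 0.543, against 0.573 for 1168 such regions elsewhere, and the 23 in replicate 2 had a median of 0.527, against 0.556 for 1125 elsewhere. Over all widths, 15 of 22 hth regions in replicate 1 and 14 of 25 in replicate 2 had a score under the median of regions of like width elsewhere. All regions of at least 10 kb, 4 in replicate 1 and 2 in replicate 2, were among these. In replicate 1 the 13.5 kb region was above 15.0% of regions of like width and the 14.9 kb region above 34.5%. Some short regions stood high instead. The first of the chain, scored 0.693 and 0.561 by replicates 1 and 2, was above 88.0% and 78.6% of regions of like width, and the 4179 bp region of replicate 2 in the middle zone was above 86.9%.

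**Figure D3:**
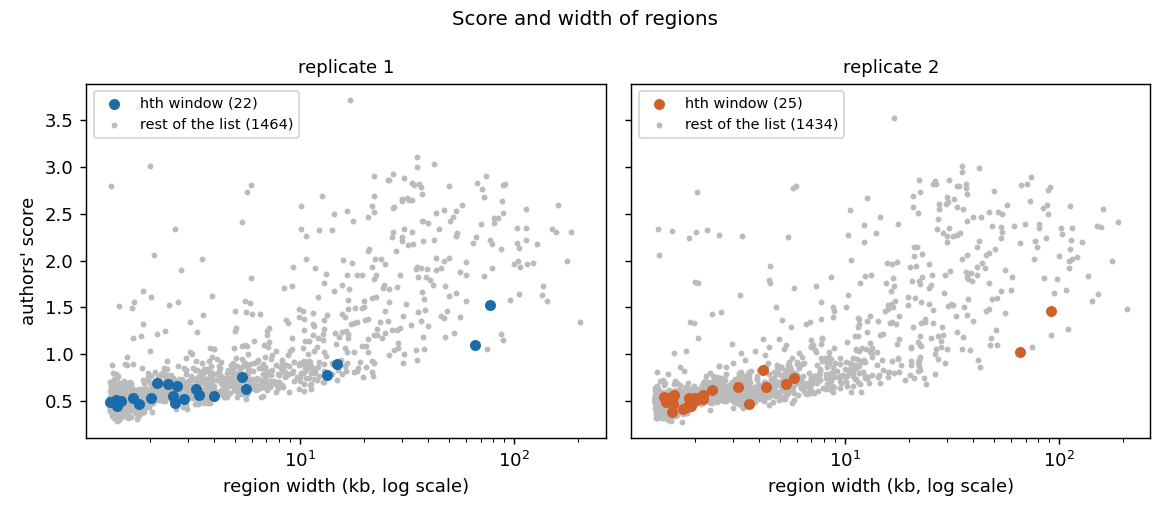
Each point is a region, with its width in kb on a log scale and the authors' score, for the hth window in colour and the rest of the same list in grey. The regions of hth above 50 kb, with scores of 1.03 to 1.52, sit at the lower edge of the grey points of their width in both replicates.

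Chains of regions less than 20 kb apart were used to set hth beside other fragmented stretches. The hth chain had 22 regions over 255.8 kb in replicate 1, and 25 over 255.9 kb in replicate 2. Replicate 1 had 3 chains with 20 or more regions (25, 22 and 21) and then fell to 18, and replicate 2 also had 3 (25, 21 and 21) and then 18. These counts were part of how hth was chosen. The called share of the hth chain was 85.9% in replicate 1 and 84.2% in replicate 2. The other chains with 20 or more regions were called over 52.4% and 60.6% in replicate 1 and over 68.0% and 69.7% in replicate 2. Over all chains of at least 100 kb, 50 in replicate 1 and 53 in replicate 2, the median was 88.9% and 90.1%. Per 100 kb, the hth chain had 8.60 regions in replicate 1 and 9.77 in replicate 2, against a median of 4.32 over 49 and 4.69 over 52 other such chains. Of the others, 8 in replicate 1 and 9 in replicate 2 had more per 100 kb, among them 2 and 2 that were called over more than 80%. The 80% limit was not planned beforehand. With a joining distance of 10 kb, the hth chain was cut at its widest gap and held 12 regions in replicate 1 and 15 in replicate 2. With 20 kb, its longest region took up 30.2% of the chain in replicate 1 and 36.0% in replicate 2, against medians of 51.0% and 47.6%. Counted from the smallest such share, the hth chain ranked 14 of 50 in replicate 1 and 19 of 53 in replicate 2. Counted from the least called, it ranked 23 and 18.

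Outside hth, replicate 1 had its largest number of regions in a chain between 15157518 and 15349186 of 3L, with 25 pieces there and 24 in replicate 2 over the same 192 kb. In replicate 2 these were not a single chain, since the chain that began at 15158109 ended at 15270772 with 14 regions. The 192 kb stretch was called over 52.4% and 57.1%, with no region wider than 12.1 kb in replicate 1 and 21.1 kb in replicate 2. Its median score was 0.543 and 0.575, and the replicates shared 66.7% of its bases. The hth chain had median scores of 0.561 in replicate 1 and 0.532 in replicate 2. This 3L stretch and the hth chain were both chosen for their many regions, so their like numbers of pieces follow from that choice. The longest hth regions, 77.4 kb in replicate 1 and 92.2 kb in replicate 2, were wider than any of the 3L stretch. The longest unbroken regions of 3R were wider than any at hth. Replicate 1 had one that began at 12624865 and measured 186 kb (score 2.31), and another that began at 2738101 and measured 137 kb (score 1.73). In replicate 2 these measured 188 kb (score 2.42) and 137 kb (score 1.84). The widest hth region had rank 9 on the arm by width in replicate 1 and rank 5 in replicate 2, and its score was below those of both these regions in each replicate. Once regions less than 1 kb apart were merged, the longest piece at hth measured 164 kb in replicate 1 and 159 kb in replicate 2. The 137 kb region was not measured after merging, so its width as called cannot be ranked against these. The 137 kb region was itself part of a chain of 16 regions in replicate 1 and 18 in replicate 2, in which it took up 34.8% of the span in both. That chain was 395 kb long in replicate 1 and 394 kb in replicate 2, and its median score was 0.584 and 0.581.

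**Figure D4:**
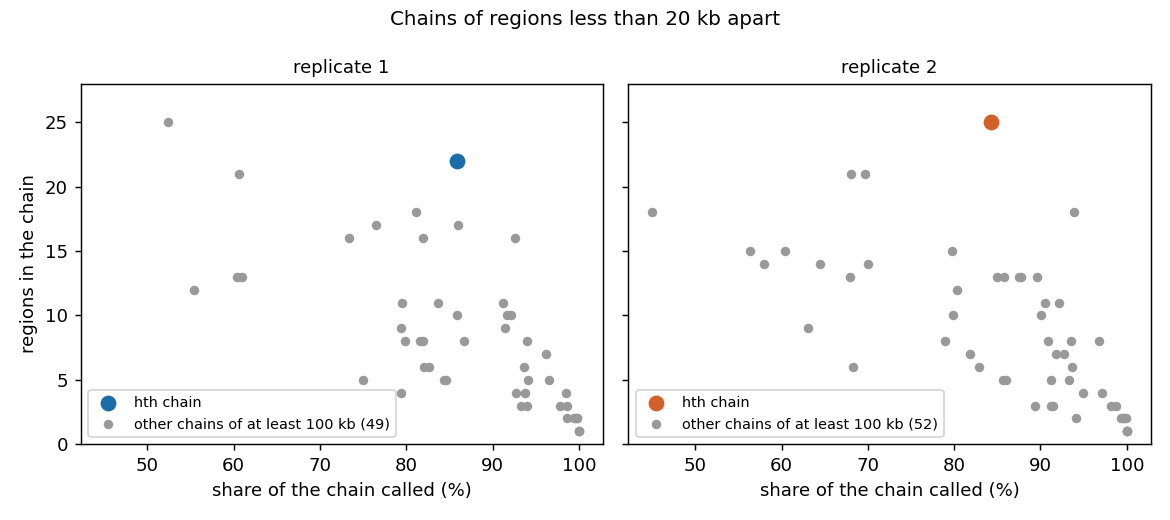
Each point is a chain of at least 100 kb made by joining regions less than 20 kb apart, with the share of its length called in percent and its number of regions. The hth chain lies at 85.9% and 22 regions in replicate 1 and at 84.2% and 25 regions in replicate 2. By number of regions, which was part of how it was chosen, it ranks 2 in replicate 1 and 1 in replicate 2. Per 100 kb, 8 other chains in replicate 1 and 9 in replicate 2 have more regions.

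The series list was the least divided at hth. Its 14 regions held 239 kb, of which 85.8% was called in both replicates and 3.87% in neither. Of the 14, 11 overlapped both replicates, 1 replicate 1 alone, 1 replicate 2 alone and 1 neither, while 6 met 2 or more regions of replicate 1 and 6 met 2 or more of replicate 2. In turn, 99.98% of the replicate 1 bases and 99.9% of the replicate 2 bases at hth lay within it. The headers and labels do not state how it was made, and it is not independent of the replicates.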

How the data were processed

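The data are 3 lists of H3K27me3-enriched regions in GFF3 form, one for each of 2 ChIP libraries and one for the whole series. Coordinates are 1-based in build FlyBase r5, per the file headers. Each region carries a score, deposited by the authors, on a scale that neither headers nor labels state. The caller and its threshold are not stated either, and the aligner Bowtie 0.12.7 appears in the submitters' processing notes. Depth is unknown, so no interval that needs it is given, and the inputs were not analysed on their own. Other values in the deposited lists are starts and ends.

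Overlap counted from 1 bp. Neighbours less than 20 kb apart were joined into chains on the major arms, 2L, 2R, 3L, 3R, X and 4. Each score was set beside regions elsewhere in the same list of 0.7 to 1.4 times its width. Broad means at least 10 kb. Named were the 5 longest and 5 highest-scoring regions, the 5 widest gaps, unmatched and outermost regions per replicate, plus comparators. Further regions were named after their values were seen. The members, lists and rules were chosen with earlier results of these data known, and no test was made. The smallest two-sided exact permutation p that 2 values against 2 allow is 0.333. No genome of the build was used, so no sequence is shown, and motifs in the hth promoter were not searched. Code was checked on simulated data and recovered 3 of 3 lists. The simulated regions lay farther apart than the joining distance and matched one to one. Joining into chains and matches to more than 1 region were therefore not checked. Calculations used Python 3.11.15, numpy 2.4.6, scipy 1.17.1 and matplotlib 3.10.9.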

Additional observations from a re-analysis of the deposited data

How the results depend on the processing

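Of 53 alternative settings, 30 moved a value beyond the spread between replicates, its counting interval or 1.5 times the count. Of the other 23, 15 could not have moved it, since they leave out 1 of 2 replicates, hold the same regions or remove only regions other than the longest, so 8 bear on stability. Some of the 30 had a direction fixed by the setting. Merging cannot lower the called share or shorten the longest region. Keeping only the higher-scoring regions cannot lower the median score. The number 30 is therefore no measure of instability. The counting interval was used for bases shared by the replicates and for series list bases called in them. It treats neighbouring bases as independent, which they are not, so it is too narrow and small shifts in these shares counted as moved. The narrower width band, the merged ends and the right zone alone were chosen after the data were seen. Merging regions under 1 kb apart left a mean of 11 regions per replicate, in place of 23.5, with 83.9% of the window called, a longest region of 162 kb, 89.97% of bases shared and 6 recurrent gaps of 8. Merging under 2 kb gave 5.5 regions, 86.8%, 164 kb, a median score of 0.598, 93.6% shared and 3 recurrent gaps of 4. The regions at or above each list's median score gave 9 regions, 71.1% called, a median score of 0.717, 90.2% shared and 6 recurrent gaps. Regions of at least 2 kb gave 14 regions, 76.3%, 0.646, 90.8% and 10 recurrent gaps. The chain in place of the window was called over 85.0%, and the right zone alone over 98.6%. Without either replicate in turn, the number of regions was 22 to 25, the called share 81.3% to 82.9%, the longest region 77.4 kb to 92.2 kb and the median score 0.532 to 0.561. Asking for 50% of both regions left 14 matched regions in replicate 2, in place of 22. It left 14 in replicate 1 too, in place of 20, a change within 1.5 times the count. Median end differences were 396.5 bp over 2 pairs after merging under 1 kb. By number of regions the hth chain ranked 2 in replicate 1 and 1 in replicate 2. With a joining distance of 10 kb, which cuts the chain at its widest gap, it ranked 6 and 2, and with 50 kb it ranked 5 in replicate 1. The series list bases called in both replicates were 90.3% for its regions at or above the median score, and those called in at least 1 replicate were 96.1%. The count of hth regions under the like-width median was 15 in replicate 1 and 12 in replicate 2 with a band of 0.8 to 1.2 times the width. No paired analysis was possible because no list of regions of the inputs alone was analysed here. What depth limits was not measured.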
